A study of Mus musculus with 4 samples.

Results

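The cadherin and protocadherin genes comprised the 92 protein-coding mouse genes of the RefSeq table (GRCm38.p6, the mm10 build) whose symbol is Cdh or Pcdh followed by digits or starts with Pcdha, Pcdhb or Pcdhg, out of 21887 protein-coding genes on chromosomes 1 to 19, X and Y. They were 23 Cdh genes, 12 Pcdh genes that stand alone, and 57 genes of the clustered protocadherin locus, namely 14 Pcdha, 22 Pcdhb and 21 Pcdhg genes. Chromatin immunoprecipitation sequencing (ChIP-seq) was done on hippocampus of adult C57BL/6N mice. All samples shared this tissue and strain, and 3 libraries were precipitated with an anti-TIMELESS antibody (replicates 1, 2 and 3) while 1 library was input, which is chromatin that was not precipitated. Nothing in the labels says that the libraries came from separate animals, so their spread may be technical. The study's title ties TIMELESS, a protein of the circadian clock and of the replication fork, to synaptic plasticity, memory and cAMP signalling, and adhesion genes such as these are among the genes of the synapse.

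Cadherins are membrane proteins that join cells through extracellular domains that bind calcium, and their tails bind catenins, which link them to actin. Classical cadherins hold synapses and developing tissue together, with type I members such as N-cadherin (Cdh2) and type II members such as Cdh6 to Cdh12. Most clustered protocadherins are expressed in different random sets in single neurons. The proteins give each neuron its own surface identity and serve in self-avoidance of its branches. In the Pcdha and Pcdhg clusters each variable first exon has its own promoter and is spliced to constant exons at the end of the cluster, whereas each Pcdhb gene stands in 1 exon.

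A peak is a stretch where reads pile up above the background of the same library, as called by the authors. A shared region is a merged stretch with peaks of at least 2 TIMELESS libraries and no input peak, and a gene was counted as holding one if it lay in the gene or within 3 kb of either end. Each peak carries a fold, the authors' value of its pileup over the local background of the same library. Libraries differed in depth. The peak caller kept 8425679, 13572739 and 30454118 tags in replicates 1, 2 and 3 and 14669253 in the input, and 7454, 24659, 89043 and 306 peaks lay on the chromosomes used. In the library labelled TIMELESS replicate 3, the header of the peak file gives the name of an input, and the main counts are therefore repeated with it left out. A peak list gives no expression, so the labelled tissue could not be checked against its markers.

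Cadherin and protocadherin genes held 44 shared regions, and 12 of them held peaks of all 3 libraries. Regions fell in the longest genes. Cdh12, a type II classical cadherin, held 11 and Pcdh15, a protocadherin of the tip links of sensory hair cells, held 10, while 18 stand-alone genes under 128 kb and all 22 Pcdhb genes held none. Of the 92 genes, 43 held a shared region, against 9.92% of all protein-coding genes, and 38 held a region of all 3 libraries, against 4.18%. These gene counts rest on few sites, because Pcdha genes overlap one another and so do Pcdhg genes. In them, 32 genes were counted from only 3 regions. When overlapping gene windows were merged, 13 of 47 loci held a shared region and 8 held a region of all 3 libraries. Leaving out replicate 3 left 16 of the 44 regions, leaving out replicate 2 left 14, and leaving out replicate 1 left 38.

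Input gave almost no peak in these genes. It had 1 peak in the 10.9 Mb that the genes and their 3 kb flanks cover, in Cdh18 on chromosome 15 at 23114740 to 23115163 with the authors' fold of 7.94, and no TIMELESS peak of any library overlapped it. In the same 10.9 Mb, replicates 1, 2 and 3 had 27, 105 and 352 peaks. Of these, 66.7% (exact 95% binomial interval 46.0 to 83.5), 40.0% (30.6 to 50.02) and 11.4% (8.24 to 15.2) overlapped a peak of another TIMELESS library. Over all chromosomes the shares were 76.4%, 46.6% and 12.4%, so the members' intervals include the shares of the whole series. Intervals cover counting error only, since neighbouring peaks are not independent.

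**Figure D1:**
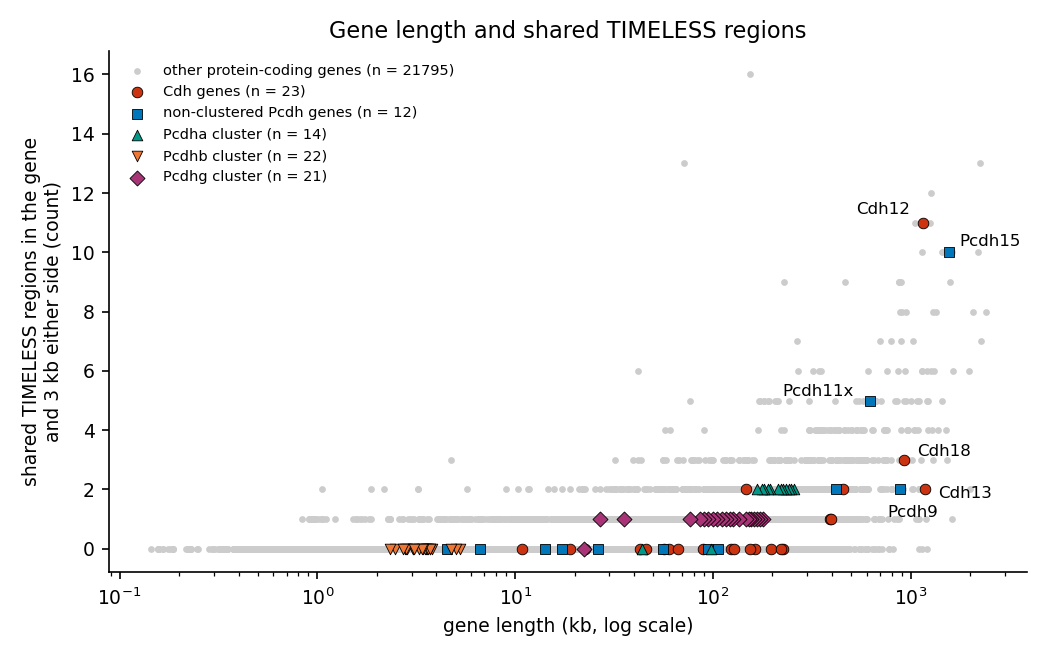
Number of shared TIMELESS regions in each protein-coding gene with 3 kb either side (y axis, count) against gene length (x axis, kb, log scale), 1 point per gene, with cadherin and protocadherin genes in colour and other genes in grey. Cdh12 with 11 and Pcdh15 with 10 stand at the top right, Cdh13 of similar length holds 2, and the Pcdhb genes lie at 0.

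Gene length ordered the 35 genes outside the clustered locus. All 6 genes of at least 512 kb held a shared region, against 89.2% of the 212 other protein-coding genes of that length, and 4 of the 6 held a region of all 3 libraries, against 58%. All 4 genes of 256 to 512 kb (Cdh4, Pcdh7, Cdh8 and Cdh23) held one, against 64.9% of others. Of the 7 genes of 128 to 256 kb only Cdh6 did, against 37.1%. Below 128 kb 0 of 18 did, against 2.06% to 20.6% of others by class, although Cdh17 and Cdh5 did with flanks of 10 kb. In total 11 of 35 held a shared region, where the shares of other genes in the same length classes add up to 12.5 genes, and 6 held a region of all 3 libraries, where they add up to 6.63. By these sums the stand-alone genes held shared regions about as often as other genes of their length.

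Peak density gave the same picture. Replicate 1 had 2.48 peaks per Mb in the members and 2.32 in other protein-coding genes of the same length classes, replicate 2 had 9.63 and 7.39, and replicate 3 had 32.3 and 29.2. The density was higher in the members in each of the 3 libraries, by ratios of 1.07, 1.30 and 1.11, with a mean log2 ratio of 0.21 ± 0.15 (SD, n = 3) and p = 0.25 in a two-sided exact permutation test over the libraries. That is the smallest p that 3 libraries can give, so the design could not call this difference. The input had 1 peak, a ratio of 1.68. Outside the clustered locus the ratios were 1.00, 1.31 and 1.10.

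Peaks near gene starts could be counted for some members. RefSeq promoters (GRCm38.p6, from 250 bases before to 50 after a gene's start) were at hand for 22 of the 92 members, with 25 starts. No peak of any TIMELESS library lay within 3 kb of any of these starts, where 0.903%, 2.49% and 6.39% of 17492 protein-coding genes with a promoter entry had a peak of replicates 1, 2 and 3. Shares this low do not set a count of 0 among 22 genes apart. The closest peak to a start was one of replicate 3 at 3.10 kb from the Cdh12 start. Within 10 kb, 8 of the 22 genes had a peak of replicate 3 (36.4%, against 25.1% of all). None had a peak of replicates 1 or 2, where 3.85% and 11.0% of all did. The closest shared region inside a gene was 41.2 kb from the start of Pcdh7, whose protein is an adhesion molecule that also binds protein phosphatase 1.

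Promoters of 3 members are shown, those of the pair with the most shared regions and that of Pcdh10, an autism-linked protocadherin with no TIMELESS peak of any library in its gene. All read from 5′ to 3′ on the plus strand, with CG pairs in capitals. The Cdh12 promoter lies at chr15:21111202-21111501 and has 9 CG pairs and a GC content of 46.7%, the Pcdh15 promoter lies at chr10:73821617-73821916 and has 8 and 50.7%, and the Pcdh10 promoter lies at chr3:45378148-45378447 and has 24 and 62.3%.
Cdh12: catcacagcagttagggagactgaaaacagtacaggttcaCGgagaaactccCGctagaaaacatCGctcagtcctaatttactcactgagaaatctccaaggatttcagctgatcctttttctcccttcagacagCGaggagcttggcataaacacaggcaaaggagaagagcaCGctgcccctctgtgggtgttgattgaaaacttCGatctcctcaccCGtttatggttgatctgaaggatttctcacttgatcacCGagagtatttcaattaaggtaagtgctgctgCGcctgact
Pcdh15: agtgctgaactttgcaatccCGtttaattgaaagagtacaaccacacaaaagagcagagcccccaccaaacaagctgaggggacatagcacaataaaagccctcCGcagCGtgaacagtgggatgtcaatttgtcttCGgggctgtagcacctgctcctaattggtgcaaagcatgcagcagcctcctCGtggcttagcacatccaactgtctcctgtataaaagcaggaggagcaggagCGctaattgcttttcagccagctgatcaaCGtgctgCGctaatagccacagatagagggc
Pcdh10: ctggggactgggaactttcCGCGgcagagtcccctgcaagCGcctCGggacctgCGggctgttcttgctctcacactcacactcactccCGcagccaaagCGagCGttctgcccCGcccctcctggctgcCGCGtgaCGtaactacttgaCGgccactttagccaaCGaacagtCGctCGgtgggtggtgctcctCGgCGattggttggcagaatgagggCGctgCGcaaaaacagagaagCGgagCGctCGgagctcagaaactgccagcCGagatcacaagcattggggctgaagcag

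Promoters of the 22 members had a median of 13 CG pairs and a GC content of 59.8%, beside 13 and 56.3% over all 17492. The 8 members with a shared region in the gene had a median of 10 CG pairs and the 14 without one a median of 18. The clock's E-box, CACGTG, which reads the same on both strands, occurred in 1 of the 22 promoters, that of the muscle cadherin gene Cdh15, and in 7.90% of all 17492. These are letters in a window of 300 bases and were not tested for binding. Of the 32 shared regions in genes with a promoter entry, 12 lay on the 5′ side of that start and 20 on the 3′ side, at a median distance of 338 kb. Cdh12, Pcdh15 and Cdh18 had 7, 3 and 2 regions on the 5′ side and yet inside the annotated gene, since these genes extend far upstream of the start listed.

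Cdh12 (chromosome 15, 20448878 to 21598421, 1150 kb) held the most shared regions of any member, 11, of which 2 held peaks of all 3 libraries. It had 3, 16 and 76 peaks in replicates 1, 2 and 3 and none in the input. In the region at 20918876 to 20919660 the folds were 6.42, 6.96 and 6.28, a mean of 6.55 ± 0.356 (SD, n = 3), the highest mean of the 12 member regions with peaks of all 3 libraries. In the region at 20645001 to 20645598 they were 5.10, 5.53 and 5.23, a mean of 5.28 ± 0.219. At both sites the libraries were close to one another. The other 9 regions held peaks of replicates 2 and 3 only, with folds of 3.95 to 5.45 in replicate 2 and 2.43 to 8.77 in replicate 3. At fold of at least 5, both regions of all 3 libraries kept all of them. The count for Cdh12 was 2 with replicate 3 left out, 2 with replicate 2 left out and 11 with replicate 1 left out. Those for Pcdh15 were 4, 2 and 8, so that Pcdh15 stood above Cdh12 when replicate 3 was left out.

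Pcdh15 (chromosome 10, 73096277 to 74649831) is the longest member at 1554 kb. It had 4, 20 and 83 peaks in replicates 1, 2 and 3 and held 10 shared regions, 2 of them with peaks of all 3 libraries. In the region at 74244672 to 74245188 the folds were 5.12, 5.20 and 4.65, a mean of 4.99 ± 0.299 (SD, n = 3). In the region at 73580677 to 73581482 they were 4.64, 6.30 and 2.27, so that replicate 2 was high and replicate 3 low, with a mean of 4.4 ± 2.02. Replicates 2 and 3 alone shared 6 regions and replicates 1 and 2 alone shared 2.

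**Figure D2:**
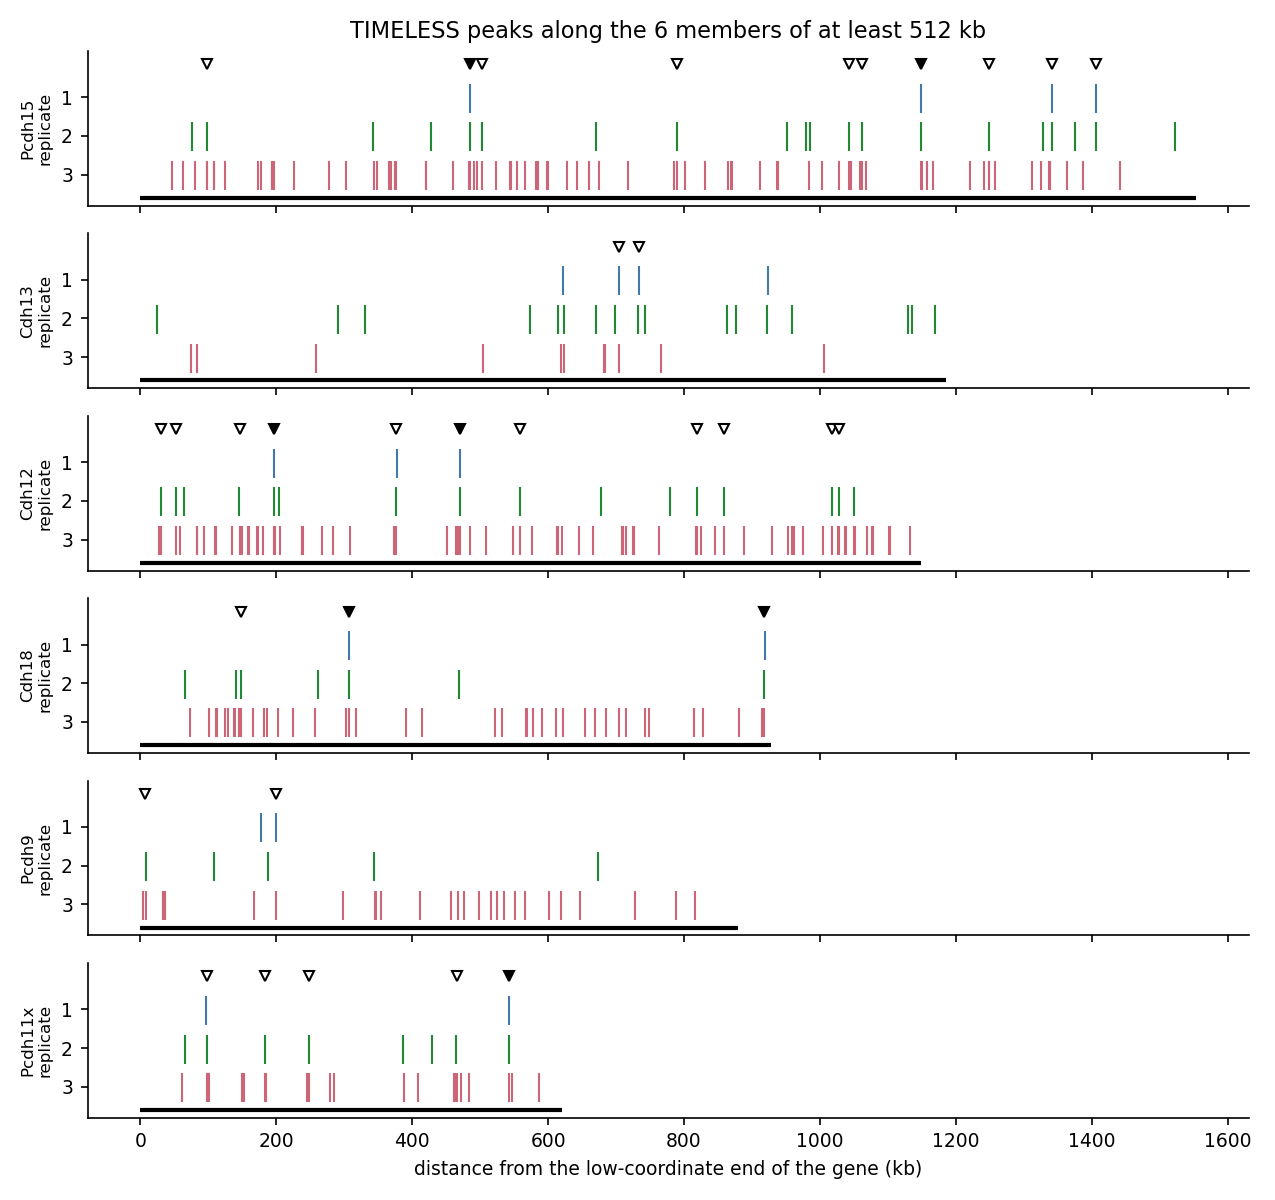
Positions of TIMELESS peak summits (coloured ticks, 1 row per replicate) along the 6 members of at least 512 kb (black bars), as distance in kb from the low-coordinate end of each gene. Filled triangles mark shared regions of all 3 libraries and open triangles those of any 2. Replicate 3 has 23 to 83 peaks in 5 of the genes but only 11 in Cdh13, where replicate 2 has 17.

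Cdh13 (chromosome 8, 118140017 to 119324929) encodes T-cadherin, which lacks the cytoplasmic tail, sits on a lipid anchor and binds adiponectin. It is 1185 kb long, about as long as Cdh12, and held 2 shared regions and none of all 3 libraries. Replicates 1, 2 and 3 had 4, 17 and 11 peaks in it, so that replicates 1 and 2 placed about as many peaks there as in Cdh12, which had 3 and 16, and replicate 3 placed far fewer. The shared region at 118844754 to 118845099 showed a fold of 7.86 in replicate 1 and 4.01 in replicate 3, and the other at 118872792 to 118873432 had 5.24 in replicate 1 and 4.10 in replicate 2. Without replicate 1 Cdh13 held no shared region.

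Per Mb, replicates 1 and 2 gave 3.36 and 14.3 peaks in Cdh13, 2.60 and 13.8 in Cdh12 and 2.56 and 12.8 in Pcdh15. Replicate 3 gave 9.24 in Cdh13, 65.8 in Cdh12 and 53.2 in Pcdh15. The median of the 212 other genes of at least 512 kb was 1.98, 7.70 and 31.8 in replicates 1, 2 and 3. Cdh12 had 9.52 shared regions per Mb, seventh in rank among the 218 genes of that length, and Cdh13 had 1.68, beside a median of 3.48 in the other genes and 7.40 at their 90th percentile. The order of these members therefore depends on the library. Leaving out replicate 3 left 2 shared regions in Cdh12 and 1 in Cdh13, and leaving out replicate 2 also left 2 and 1, so the gap of 11 to 2 was seen with replicates 2 and 3 together.

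**Figure D3:**
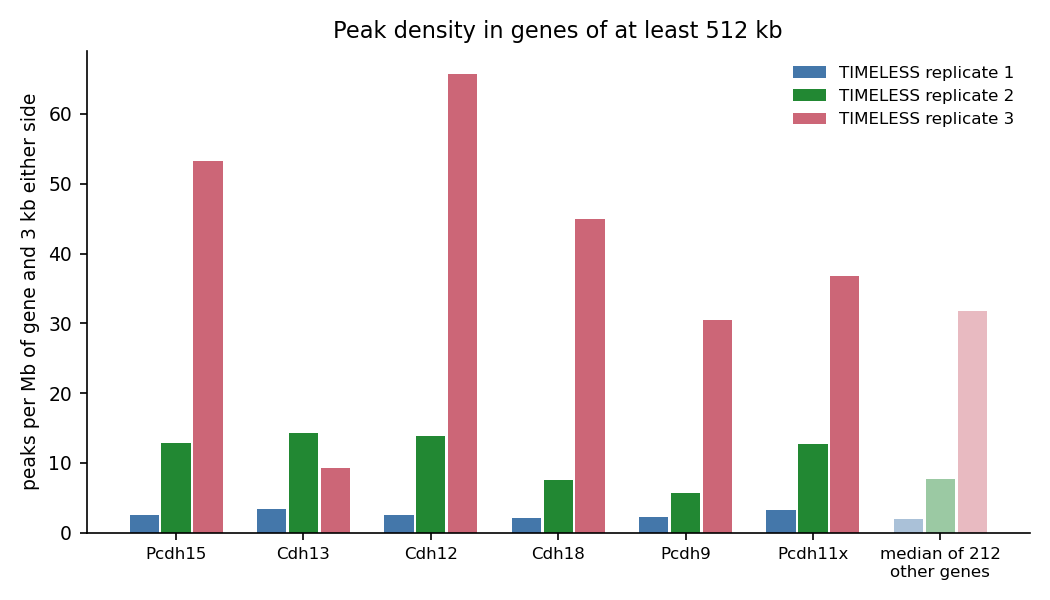
Peaks per Mb in the 6 members of at least 512 kb (bars, 1 per TIMELESS replicate) and the median over the 212 other protein-coding genes of that length (pale bars). In replicate 3 Cdh13 stands at 9.24 and Cdh12 at 65.8, whereas in replicate 2 they stand at 14.3 and 13.8.

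Cdh18, a type II cadherin of the brain (chromosome 15, 22548898 to 23477491), held 3 shared regions, 2 of them with peaks of all 3 libraries. At 22855077 to 22855933 the folds were 5.18, 4.73 and 2.77, a mean of 4.23 ± 1.28 (SD, n = 3), and at 23467009 to 23467778 they were 4.01, 5.0 and 2.93, a mean of 3.98 ± 1.04. Replicate 3 was the lowest at both sites. Over all chromosomes its peaks also had the lowest median fold, 3.63 beside 4.91 and 4.41 in replicates 1 and 2. Pcdh11x, an X-linked protocadherin of the brain (chromosome X, 120290238 to 120910622), held 5 shared regions. One, at 120832266 to 120833064, held peaks of all 3 libraries with folds of 3.44, 5.44 and 4.77, a mean of 4.55 ± 1.02. In the other 4, replicates 2 and 3 lay close together, with folds of 3.65 to 4.45 and 3.56 to 4.34.

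Pcdh9, a protocadherin of neurons (chromosome 14, 93013700 to 93892834), held 2 shared regions in 879 kb, fewer per Mb than the median long gene. In one, replicate 2 had a fold of 4.25 and replicate 3 of 3.5. In the other, replicate 1 had 5.38 and replicate 3 had 2.68. Both needed replicate 3, so that without it Pcdh9 held none. It had 2, 5 and 27 peaks in replicates 1, 2 and 3.

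Among the genes of 256 to 512 kb, Pcdh7 and Cdh23 each held a region of all 3 libraries. In Pcdh7 (chromosome 5, 57716145 to 58133236) the folds over 57759294 to 57760092 were 6.12, 6.50 and 4.39, a mean of 5.67 ± 1.12 (SD, n = 3), and replicates 2 and 3 shared a further region with folds of 4.34 and 5.80. In Cdh23, the cadherin that pairs with Pcdh15 in the tip links (chromosome 10, 60302748 to 60696513), the folds over 60476768 to 60477344 were 6.55, 6.84 and 3.44, a mean of 5.61 ± 1.89. Replicates 1 and 2 were close there and replicate 3 was lower, as its median fold was over all chromosomes. Cdh4, the retinal or R-cadherin, held 2 regions of replicates 2 and 3 with folds of 4.79 and 4.01 in one and 6.84 and 4.2 in the other. Cdh8, a type II cadherin of the brain, held 1 such region with 3.75 and 2.60, which was lost when peaks had to reach −log10 q of 5.

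Cdh6 (chromosome 15, 13028699 to 13176407, 148 kb) was the shortest stand-alone gene with shared regions. It held 2, at 13079926 to 13080463 where replicate 1 had a fold of 5.90 and replicate 2 of 3.42, and at 13131594 to 13131919, where replicate 2 had 5.13 and replicate 3 had 4.39. The 3 longest stand-alone genes without one were Cdh20, Cdh2 and Cdh10. Cdh2, whose N-cadherin is the main classical cadherin of hippocampal synapses, had 0, 1 and 5 peaks in replicates 1, 2 and 3 in 220 kb, and no shared region formed from them. Cdh20 had 0, 3 and 8, and Cdh10 had 1, 1 and 7. Cdh9, a cadherin of the synapses between dentate gyrus and CA3, had peaks only in replicate 3, 5 of them, and Cdh11 had 1. Pcdh8 (arcadlin, which takes N-cadherin off the synapse), Pcdh10, Pcdh17 and Pcdh19, a gene of an X-linked epilepsy, had no peak in any library. These last 4 genes span 4.54 to 106 kb.

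**Figure D4:**
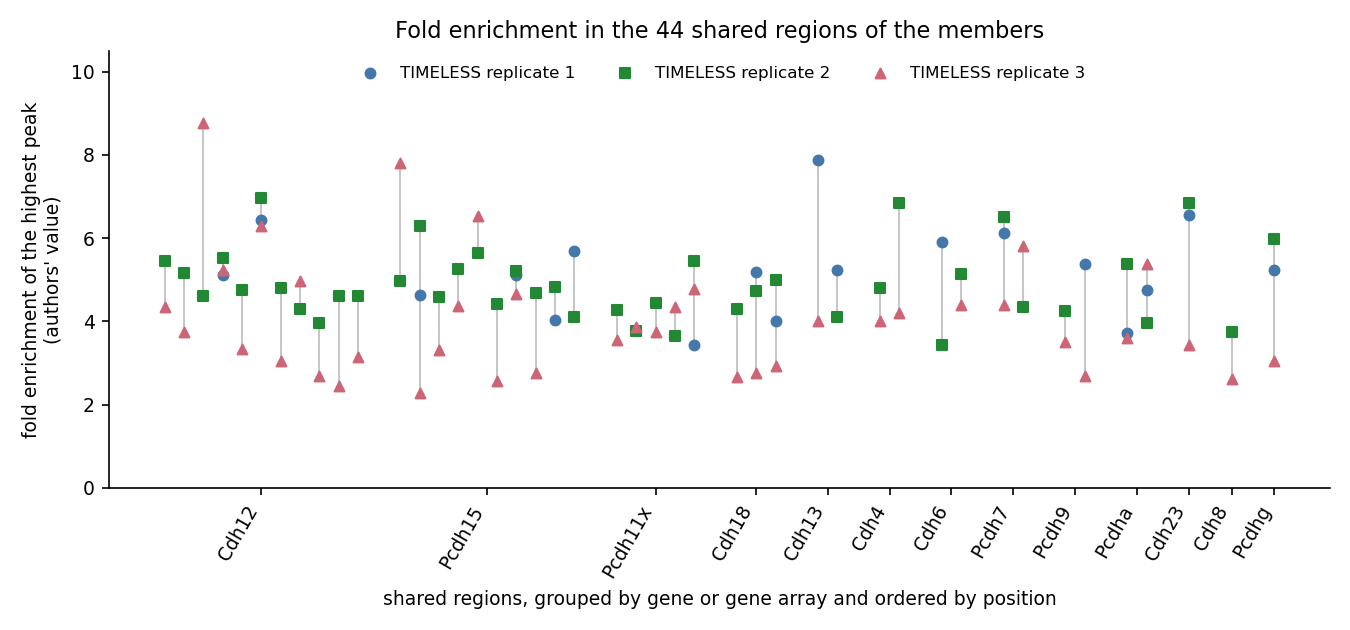
Fold enrichment of the highest peak of each TIMELESS replicate (y axis, the authors' values, no unit) in the 44 shared regions of the members, grouped by gene or gene array, with a grey line joining the libraries of a region. The folds run from 2.27 to 8.77, and no replicate is the highest throughout.

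The shared regions were of ordinary strength. Over the 12 regions of all 3 libraries the median folds were 5.11, 5.48 and 4.0 in replicates 1, 2 and 3, beside 5.19, 5.33 and 4.14 over all 3476 such regions of the series. The smallest fold of the 3 libraries had a median of 3.524 in the 12 member regions and 3.996 in the 3476. Its highest value was 6.28 in the members, at the 87.7th percentile of the series, and 20.6 in the series. These maxima do not compare strength, because a maximum tends to rise with the number of regions. Of the 44 regions, 26 (59.1%) were of replicates 2 and 3 only and 12 (27.3%) of all 3, beside 53.9% and 29.1% of the 11957 shared regions of the series. Their median width was 585 bp, beside 561 bp. The highest peaks of replicate 3 in the members were in no other library. They lay in Cdh12 at 21551871 to 21552381 with fold 13.1, in Cdh12 at 20996907 to 20997336 with 10.3 and in Pcdh9 at 93614379 to 93614962 with 9.73.

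The clustered protocadherin locus spans 918 kb of chromosome 18 (36927285 to 37844873 with 3 kb flanks) and held 9 shared regions, 4 of them of all 3 libraries. Replicates 1, 2 and 3 had 5, 11 and 43 peaks in it and the input had 0. Per Mb of the whole span, gaps between genes included, that is 9.81 shared regions, beside 4.60 over chromosome 18. The clustered genes and their 3 kb flanks alone held 3 regions, or 4.84 per Mb, beside 9.52 in Cdh12. Chromosome 18 was divided into 95 windows of the length of the locus. Of these, 6 had as many shared regions as the locus or more. The median over the windows was 4 and the highest count 10. As many regions of all 3 libraries, or more, were found in 6 windows. This describes where the locus stands and is not a test. All 5 peaks of replicate 1 in the locus overlapped a peak of another library (exact 95% binomial interval 47.8 to 100), as did 8 of 11 of replicate 2 and 9 of 43 of replicate 3. Leaving out replicate 3 left 4 regions, leaving out replicate 2 left 5, and leaving out replicate 1 left 8.

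Peaks near the separate ends of the clustered genes were counted next. The low-coordinate ends of the 14 Pcdha genes spread over 213 kb and their high ends over 1240 bp, and those of the 21 Pcdhg genes spread over 158 kb and 10 bp. Within 1 kb of the low end of the 57 clustered genes no TIMELESS library had a peak, and within 3 kb replicates 1, 2 and 3 had peaks at 1, 1 and 3 genes, beside the 0.903%, 2.49% and 6.39% of genes with a promoter entry given above for starts. Only Pcdhgc4, a Pcdhg gene of the C type, had a region of all 3 libraries within 3 kb. That region spans 37812878 to 37813857, 1.22 kb from the low end of the gene. Its folds were 5.24, 5.97 and 3.06, a mean of 4.76 ± 1.52 (SD, n = 3). It lay in the windows of 20 Pcdhg genes and is the only shared region in the Pcdhg array.

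The Pcdha array held 2 regions, both with peaks of all 3 libraries and both in the stretch between the low-coordinate ends of Pcdha12 and Pcdhac1, a C-type gene. At 37044879 to 37045512 the folds were 3.72, 5.37 and 3.61, a mean of 4.23 ± 0.986 (SD, n = 3). At 37071886 to 37072802 they were 4.75, 3.95 and 5.37, a mean of 4.69 ± 0.714. A different library was the highest at each. The first lay 24.6 kb from the low end of Pcdha12 and the second 17.3 kb from that of Pcdhac1. Each lay in the windows of 12 of the 14 Pcdha genes, which is why 12 Pcdha genes counted as holding 2 regions.

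**Figure D5:**
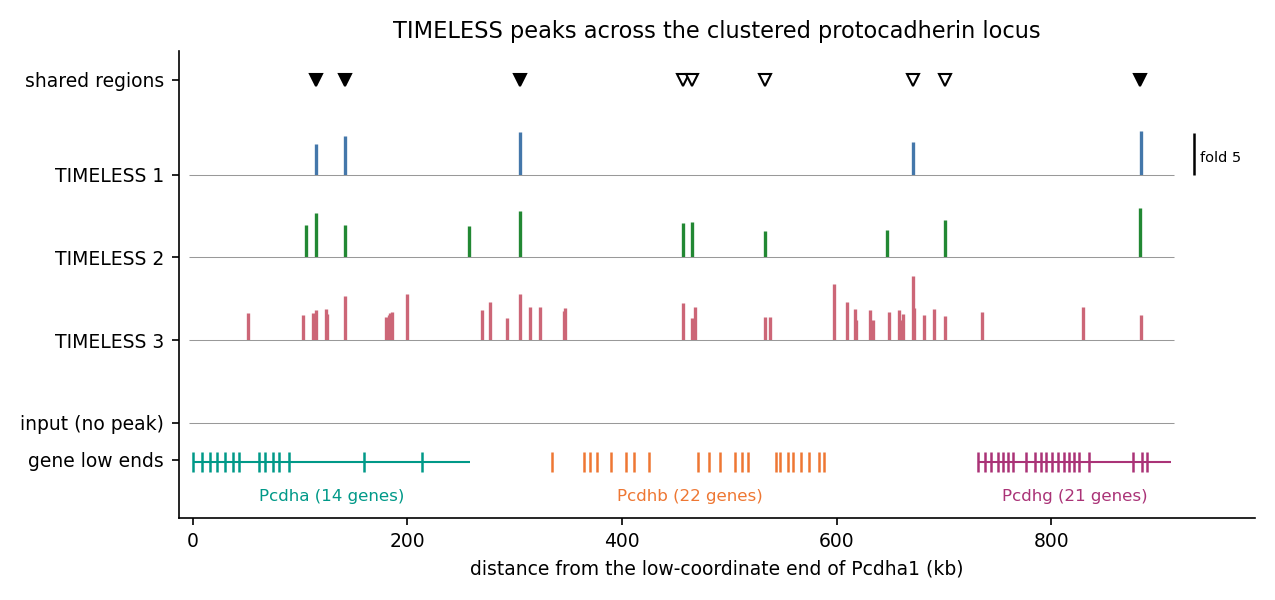
TIMELESS peaks across the clustered protocadherin locus by distance in kb from the low-coordinate end of Pcdha1, with bar height as fold enrichment (scale bar, fold 5), 1 row per replicate, and the low ends of the 57 genes below. Filled triangles mark the 4 regions of all 3 libraries and open triangles the 5 of any 2, and several regions fall between the gene arrays.

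The remaining 6 regions of the locus lay in no clustered gene or its 3 kb flanks. The only one of them with peaks of all 3 libraries, at 37234998 to 37235690 between the Pcdha and Pcdhb arrays, had folds of 5.18, 5.64 and 5.54, a mean of 5.46 ± 0.242 (SD, n = 3), with the libraries close together, 29.3 kb before Pcdhb1. Within the Pcdhb array 3 regions of replicates 2 and 3 lay between genes, at 37387158, 37395577 and 37463260, the closest being 4.88 kb from Pcdhb9. The 22 Pcdhb genes, each 2.34 to 5.27 kb long, held no shared region themselves, against 2.06% of other protein-coding genes under 16 kb, and their only peak was 1 of replicate 3 near Pcdhb9. Between the Pcdhb and Pcdhg arrays lay the densest stretch of replicate 3, with 15 peaks in 134 kb, where replicates 1 and 2 had 1 and 2. It held 2 shared regions, one with folds of 3.93 in replicate 1 and 7.73 in replicate 3.

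Stricter settings left fewer regions in the locus and in the long genes alike, and the difference between them was not tested. At −log10 q of at least 5 the locus kept 3 shared regions, the 2 of the Pcdha array and 1 outside the genes, while Cdh12 kept 7 and Pcdh15 kept 5. At fold of at least 5 it kept 2, Cdh12 kept 2 and Pcdh15 kept 2. In the 3 regions of the locus inside genes, the pileup was 11 to 18 fragments in replicate 1, 17 to 26 in replicate 2 and 15 to 65 in replicate 3.

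The surroundings of long members were compared with the genes. Among the 19 stand-alone genes of at least 100 kb, 8 had more shared regions per Mb inside than in the 500 kb on each side, and 11 had fewer. Most of those with fewer, from Pcdh19 of 106 kb to Cdh20 of 227 kb, held 0, so any region in the flanks put them below. Cdh8 and Cdh23, counted as denser inside, each had 1 region inside and 2 outside. Pcdh11x had 7.98 per Mb inside and 2 outside, and Cdh12 had 9.52 and 7. Pcdh9 had 2.26 inside and 7 outside, Pcdh7 had 4.73 and 11, and Cdh20 had 0 and 8. The type II genes Cdh6, Cdh9, Cdh10, Cdh12 and Cdh18 stand in a row on chromosome 15 with 2 other protein-coding genes among them in 10.45 Mb. That stretch held 69 shared regions, 16 in the 5 genes and 53 between them, or 6.20 and 6.73 per Mb, so that the regions in the genes were no denser than those around them.

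Partner genes were counted in the same way. Catenin genes held a shared region in 3 of 12 cases, where genes of the same length classes add up to 4.17. Ctnna3, an alpha-catenin, held 9, of which 4 had peaks of all 3 libraries, and its strongest, at 63593100 to 63593614 on chromosome 10, had folds of 6.22, 7.95 and 4.97, a mean of 6.38 ± 1.5 (SD, n = 3). Ctnna2, the neuronal alpha-catenin, held 1, where replicate 1 had a fold of 4.81 and replicate 3 of 11.8, and Ctnnd2 (delta-catenin) held 2. Only Ctnna3 kept a shared region with replicate 3 left out, and 2 catenin genes did with replicate 1 or replicate 2 left out. Of 24 genes of the wider cadherin superfamily, 5 held one, where length classes add up to 4.48. They were the calsyntenin genes Clstn1, Clstn2 and Clstn3, the atypical cadherin gene Fat3 and the desmoglein gene Dsg4, and none held a region of all 3 libraries. Fat3 reached 6.12 in replicate 1 and 6.50 in replicate 2, and the highest fold of the others was 5.47, in replicate 2 in Dsg4. Of the 5 genes, 4 kept theirs with replicate 1 left out, 0 with replicate 2 left out and 1, Fat3, with replicate 3 left out.

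Of 13 genes for clustered protocadherin regulators and for processing of cadherins, among them the insulator factor Ctcf, the cohesin subunit Rad21, the silencer Smchd1 and the protease Adam10, 0 held a shared region, where length classes add up to 2.46.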

How the data were processed

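Peak lists of 3 TIMELESS ChIP-seq libraries and 1 input library were analysed. Peaks were called by the authors with MACS 2.1.2 per library with no control, at q 0.05, per the file headers; the submitters' processing notes name mm10, Bowtie2 2.4, SAMtools 1.14, MACS2 2.1.1 and deepTools 2.0. Deposited columns were positions, the pileup signal (fragment coverage at the summit, not scaled for depth), the fold (a ratio to the library's own background) and −log10 p and q values. The caller read 15309951 to 57951401 tags per library and kept 1 per position.

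Peaks overlapping by 1 bp were merged over the TIMELESS libraries, and those that met an input peak were dropped. Sequences outside chromosomes 1 to 19, X and Y were not used. Length classes doubled from 16 kb. No set test was made, and genes or peaks were not taken as replicates. Named genes were all members with a shared region, 14 fixed members, the 3 longest without one and partners with one. Members and lists were chosen with earlier results of these data known. Python 3.11.15, pandas 2.3.3 and NumPy 2.4.6 were used, and the counting was tested on planted peaks. Promoters were RefSeq's; exons and peak sequences were not analysed here.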

Additional observations from a re-analysis of the deposited data

How the results depend on the processing

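The 43 genes with a shared region stood between 40 and 42 when 1 replicate was left out. For 32 of them, the Pcdha and Pcdhg genes, no change was possible there, since their 3 regions held peaks of all 3 libraries. The 43 genes fell to 21 at −log10 q of at least 5, to 24 at fold of at least 5 and to 13 with overlapping loci counted once, a setting chosen after seeing the data. The 38 genes with a region of all 3 libraries were 3, 1 and 8 at these settings and 18 when summits had to lie within 250 bp, where the Pcdhg region counted for 2 libraries. Of the 21 genes at the stricter q, 12 were Pcdha genes counted from 2 regions and 9 were stand-alone genes. Of the 24 at the stricter fold, 20 were Pcdhg genes counted from 1 region and 4 were stand-alone genes. Shares over all protein-coding genes were not counted at these 2 cutoffs. The 44 shared regions (4.03 per Mb) were 23 (2.11 per Mb) and 7 (0.642 per Mb) at the stricter q and fold, and 14 to 38 (1.28 to 3.48 per Mb) with a replicate left out. The 9 regions of the clustered locus were 3 and 2 at the stricter q and fold, and 4 to 8 with a replicate left out. Over the 31 genes and arrays named, the mean number of libraries in the best region was 1.84, which fell to 0.968 at fold of at least 5 and to between 1.16 and 1.45 without a replicate. The density ratio to genes of like length kept its direction, 1.09 to 1.23, in every setting tried, the 3 that leave out a replicate included. Gene windows without flanks or with 10 kb flanks, and keeping regions over input peaks, left the totals over all members and the locus within 1.5 times. With 10 kb flanks, however, 2 Pcdhb genes and the short genes Cdh17 and Cdh5 held a shared region, and Pcdh8, Pcdh10, Pcdh17 and Pcdh19 each had a peak of 1 library. Of the 35 stand-alone genes, 8 held a shared region without replicate 3 (Cdh4, Cdh8 and Pcdh9 lost theirs) and 8 without replicate 2 (Cdh4, Cdh6 and Cdh8 lost theirs). Regions of all 3 libraries have no value when a replicate is left out, and the summit and input settings do not enter the density ratio. No paired analysis was possible because the input is a single library, so the groups share fewer than 2 replicate numbers. Replicate 1, with 8425679 tags, limits how many regions of all 3 libraries can be found.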

Other observations

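The ratio of replicate 3 to replicate 2 peaks set Cdh13 apart from the other 5 members of at least 512 kb. Replicate 3 had 3.61 times as many peaks as replicate 2 over all chromosomes, and among the other protein-coding genes of at least 512 kb the median ratio was 4.29, with 2.04 and 7.0 at the 10th and 90th percentiles. In Cdh13 the ratio was 0.647, the second lowest of 211 such genes with a peak of replicate 2, and only 1 of the 205 others was below 1. Shorter stand-alone members of at least 100 kb went both ways, on few peaks. In replicates 2 and 3, Cdh4 had 7 and 7 peaks, Cdh23 had 3 and 3, Cdh6 had 3 and 4, and Cdh22 had 2 and 1. The ratio was 2.67 in Cdh20 and 3.33 in Pcdh7. In Cdh2, Cdh7, Cdh10 and Cdh8 it was 5, 6, 7 and 10. Cdh9, Cdh11 and Pcdh19 had no peak of replicate 2. Cdh12, Pcdh11x, Cdh18 and Pcdh9 had ratios of 4.75, 2.88, 6.00 and 5.40 and Pcdh15 had 83 peaks to 20, all between those percentiles. The header of the replicate 3 file names an input, and whether this bears on the genes with a low ratio was not tested.

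On chromosome 14, Pcdh17, Pcdh20 and Pcdh9 stand in 9.46 Mb with 2 other protein-coding genes. That stretch held 45 shared regions, of which 2 lay in the 3 genes and 43 between them, or 2.00 and 5.08 per Mb. On chromosome 1, Cdh20, Cdh7 and Cdh19 span 6.22 Mb with 21 other protein-coding genes and 36 shared regions. Of these, 0 lay in the 3 genes and 36 between them, at 6.30 per Mb. With flanks the 3 genes cover only 0.498 Mb, and whether they hold fewer than their surroundings was not tested.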
